A study of Mus musculus with 12 samples.

Results

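The genes described here are 36 genes of glycolysis and of the response to low oxygen, in neural stem cells (NSCs) of the newborn mouse forebrain. They are 14 enzymes of glycolysis, 3 genes of lactate and pyruvate handling, 3 transporters, 4 HIF subunits and prolyl hydroxylases and 12 effectors of the hypoxia response. The rule names the genes by symbol and uses no measured value, and all 36 were found among the 45792 genes quantified. The genes were, however, chosen with earlier results of these data known, so the choice is not independent of these data. All 36 also passed the filter on low counts, which kept 15706 genes.

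Glycolysis splits glucose into pyruvate, which the cell either turns into lactate or passes on to the mitochondrion. Many of its enzymes, the glucose transporter Slc2a1 and the lactate exporter Slc16a3 are targets of hypoxia-inducible factor (HIF), a transcription factor made of an oxygen-regulated α subunit (Hif1a or Epas1) and Arnt. Prolyl hydroxylases (Egln1, Egln3) mark the α subunit for destruction when oxygen is present, and the HIF targets Egln3, Ankrd37, Bnip3 and Car9 are often read as signs of HIF activity. NSCs and other dividing progenitors are known for a high rate of glycolysis.

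RNA of 12 cultures was sequenced after depletion of rRNA, with 4 cultures in each of 3 groups: WT, Ncf1-/- given vehicle, and Ncf1-/- given Igfbp2. Ncf1-/- mice lack Ncf1, a cytosolic subunit of the NADPH oxidase complex, and per the study's methods they had been crossed back to C57BL/6J mice, the source of the WT cells. Cells of each pup were grown in serum-free medium with EGF, FGF, insulin and B-27, so that the groups share these factors. In the study's description WT NSCs form neurospheres and Ncf1-/- NSCs tend to grow as sheets, so the form of the culture may differ between genotypes, and its form when RNA was taken is not given in the sources used here. Treated cultures received recombinant mouse Igfbp2, a secreted protein that binds insulin-like growth factors, 48 h after plating (100 ng/ml per the labels, while the study's methods give a lower dose). RNA was taken 48 h later. The labels give the vehicle cultures as untreated, and the methods as paired with the treated culture of the same pup.

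Libraries held between 18201622 and 34086554 expected counts. Ncf1 itself was at 0.0478–0.223 CPM (a gene's counts relative to the library total after TMM scaling, which corrects for differences in library composition) over the 12 libraries, so its level could not tell the genotypes apart. Markers of NSCs (10 of 10, among them Nes, Sox2 and Fabp7) were present in every group, with summed levels of 3406–9220 CPM in WT, 8501–9075 CPM in vehicle Ncf1-/- and 8535–9252 CPM in treated Ncf1-/- libraries. Singly, 2 of the 10 rose and 7 fell between WT and vehicle, 1 rose and 1 fell between treatments, and 2 rose and 6 fell between WT and treated libraries. Summed over 4 Y-linked genes, the level was 107–118 CPM in WT replicates 1 to 3 and 105–116 CPM in vehicle libraries. Their sum was 6.46 CPM in WT replicate 4 and 7.80–9.18 CPM in the treated libraries, so that vehicle and treated cultures with the same number differed in it in 4 of 4 pairs. Sex-linked expression and Igfbp2 treatment therefore cannot be told apart in these libraries.

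WT replicate 4 stood apart from the other WT libraries in the genes described here. A second sample list among the study's supplementary files, marked as switched, names this library as treated with apocynin, an NADPH oxidase inhibitor, whereas the deposited labels name it as untreated WT. It is kept as WT below, and results are given with and without it.

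The region before the transcription start was read for the core of the HIF binding site, ACGTG or GCGTG on either strand. RefSeq promoters (GRCm38.p6) were found for 34 of the 36 genes, in 50 entries, and not for Epas1 or Ndrg1. Of these 50 entries, 37 (74%) held the core in the 250 bases before the start, against 38.6% of all 32851 promoters. By gene it was held by 30 of the 34 genes, and the share by gene over all promoters was not counted. Entries of the same gene can overlap, as for Aldoa, Eno1 and Pfkm. Some sites were therefore counted more than once, also among the GC-rich entries below. Base composition differed too, with a median GC content of 61% in the entries of these genes and 52.4% in all promoters. Among promoters of at least 60% GC, the core was in 25 of 27 entries of these genes and in 63.8% of 9178 promoters. The core also lies within the E-box CACGTG, which other factors bind, and a match is a description of the letters and not a binding site.

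The sequences of 5 genes that rose between vehicle and Igfbp2-treated cultures are shown 5′ to 3′ on the gene's strand, each up to the base before the start, with the core in capitals. The first 4 hold from 2 to 4 matches, and the last, Gpi1, holds none.
Hk2 (chr6:82774455-82774704, minus strand): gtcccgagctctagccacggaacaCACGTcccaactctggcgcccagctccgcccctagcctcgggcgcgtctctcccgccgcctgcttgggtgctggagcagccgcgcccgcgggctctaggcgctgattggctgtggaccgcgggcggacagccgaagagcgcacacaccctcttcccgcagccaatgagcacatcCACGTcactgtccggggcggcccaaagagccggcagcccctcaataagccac
Slc2a1 (chr4:119108495-119108744, plus strand): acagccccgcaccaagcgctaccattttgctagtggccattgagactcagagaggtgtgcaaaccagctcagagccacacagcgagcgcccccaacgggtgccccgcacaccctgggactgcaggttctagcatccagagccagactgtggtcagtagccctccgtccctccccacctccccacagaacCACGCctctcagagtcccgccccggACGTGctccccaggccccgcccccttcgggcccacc
P4ha1 (chr10:59323046-59323295, plus strand): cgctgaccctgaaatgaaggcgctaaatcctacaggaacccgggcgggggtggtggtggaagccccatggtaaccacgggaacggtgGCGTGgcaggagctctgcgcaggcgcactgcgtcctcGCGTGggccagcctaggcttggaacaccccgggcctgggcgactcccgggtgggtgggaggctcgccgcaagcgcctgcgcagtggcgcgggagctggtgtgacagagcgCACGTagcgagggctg
Ankrd37 (chr8:45999851-46000100, minus strand): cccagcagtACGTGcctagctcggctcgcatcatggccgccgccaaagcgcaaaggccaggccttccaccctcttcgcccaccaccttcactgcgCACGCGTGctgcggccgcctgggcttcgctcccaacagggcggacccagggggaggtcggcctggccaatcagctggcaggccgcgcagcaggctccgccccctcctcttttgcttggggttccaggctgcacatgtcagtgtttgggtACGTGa
Gpi1 (chr7:34230337-34230586, minus strand): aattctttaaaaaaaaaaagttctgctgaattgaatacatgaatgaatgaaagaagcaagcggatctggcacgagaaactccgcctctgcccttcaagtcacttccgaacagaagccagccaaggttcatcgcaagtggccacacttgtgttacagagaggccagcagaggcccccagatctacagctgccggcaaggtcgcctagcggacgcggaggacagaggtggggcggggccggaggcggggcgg

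For 29 of the 36 genes, the mean CPM was lowest in WT replicates 1 to 3, higher in vehicle Ncf1-/- and highest in Igfbp2-treated cultures. This order leaves out WT replicate 4, which stood high in these genes, so leaving it out itself favours the order. With all 4 WT libraries, 20 of the 36 had a log2 fold change above 0 between vehicle and WT. Of all 15706 genes, 8009 did. WT replicate 4 lay above the other WT libraries for 34 of the 36 genes (all but Hif1a and Ldhb), and above every vehicle library for 26. How many of all genes share this order or these positions of WT replicate 4 was not counted. The 14 glycolytic enzymes summed to 4852, 4087, 5215 and 10200 CPM in WT replicates 1 to 4. They summed to 9087, 9573, 10700 and 10120 CPM in vehicle libraries, and to 15470, 12690, 14090 and 15970 CPM in treated libraries. Treated libraries thus lay above all others, and WT replicate 4 lay within the vehicle range. On the TPM scale, where short structural RNAs took 56.0–60.3% of the total in vehicle and 62.1–72.3% in treated libraries, the enzymes made up 0.389–0.543% and 0.449–0.565% of the total, and these ranges overlap. In RNA of whole cultures, a change in the number of cells of a type and a change in RNA per cell cannot be told apart.

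**Figure D1:**
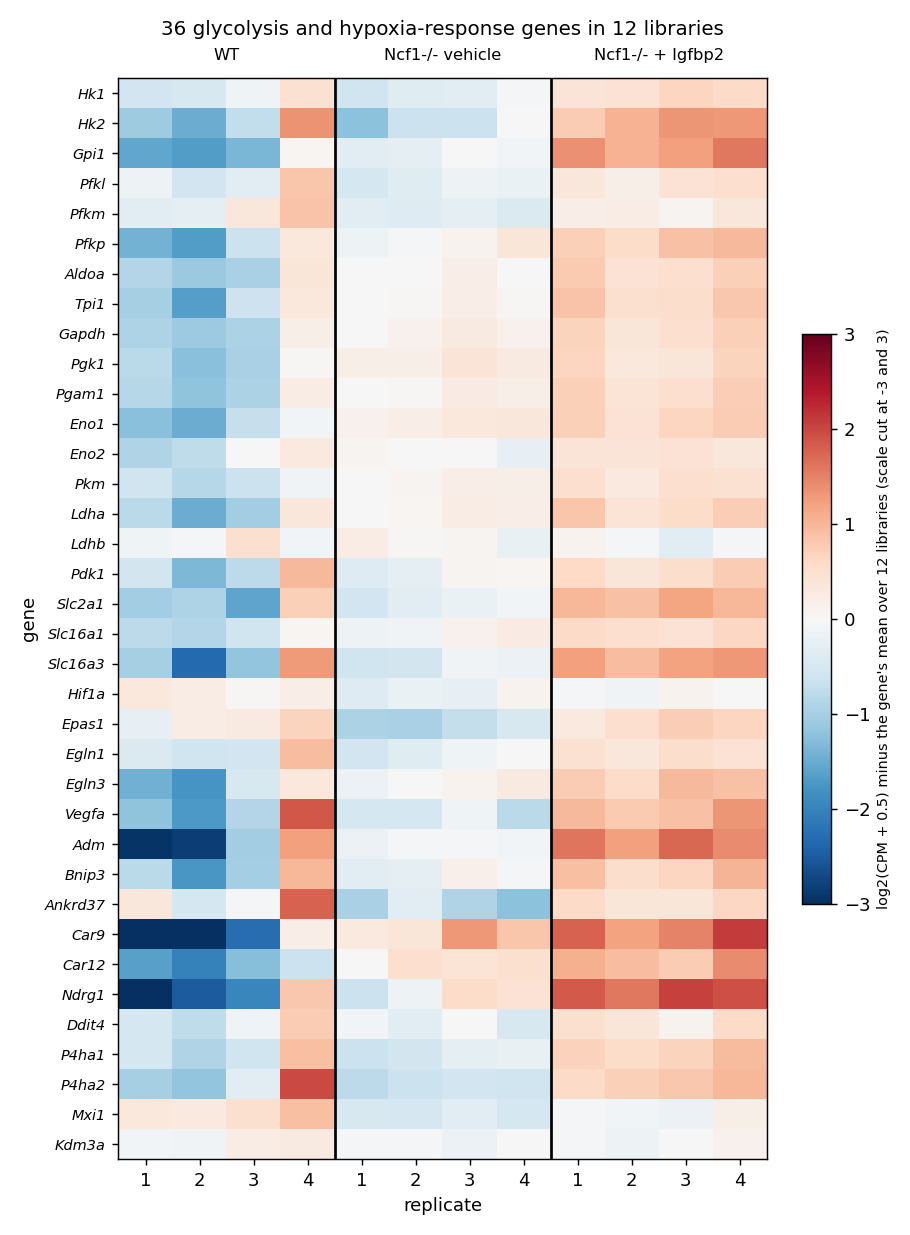
Level of each of the 36 genes (rows, ordered by role) in each of the 12 libraries (columns, by group and replicate), as log2(CPM + 0.5) minus the gene's mean over the 12 libraries. WT replicate 4 lies above the other WT libraries for 34 of the 36 genes, a position that was not counted over all genes. The 4 treated libraries lie above the 4 vehicle libraries for 31, against 19.3% of all genes.

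Between treatments, Igfbp2-treated NSCs had more RNA than vehicle NSCs for 35 of the 36 genes, with a median log2 fold change of 0.69 against 0.04 over all 15706 genes. In a quasi-likelihood fit over the 12 libraries (edgeR, adjusted p under 0.05), 9 genes were called (25.0% of all genes), of which 9 rose and 0 fell, where 14.2% of all genes rose and 10.7% fell. At an unadjusted p under 0.05 in edgeR 22 were higher and 0 lower. DESeq2 called 11 higher (15.5% of all genes) and 0 lower (11.7%). The genes that rose were Hk1, Hk2, Gpi1, Slc2a1, Slc16a1, Epas1, Ankrd37, P4ha1 and Mxi1. In 31 of the 36 genes the 4 treated libraries all lay above the 4 vehicle libraries, against 19.3% of all genes. All 12 libraries share 1 estimate of the spread. Without WT replicate 4, 29 of the 36 genes rose (13.4% of all genes), among them the same 9, and with vehicle and treated libraries alone 32 rose (19.5%). With the replicate number as a block, 32 rose as well (19.0%), although Y-linked expression differed within each numbered pair. The count fell when 1 Ncf1-/- library was left out, to 3 without vehicle replicate 1 or treated replicate 4, to 4 without vehicle replicate 2 or 3 or treated replicate 2, and to 5 without treated replicate 1 or 3, while it was 9 without vehicle replicate 4. Over all genes the share that rose was then 7.48–15.3%.

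The scale of the values matters for these counts. On library totals in place of TMM factors, the median of all genes moved from 0.04 to −0.23, with 4.13% of all genes higher and 33.5% lower. Relative to that median the 36 genes kept their distance, at a median of 0.41, and 7 rose, all of the 9 but Slc16a1 and Mxi1. On that scale Pgk1, Hif1a and Kdm3a, which were not called on either, were below 0. On log2(TPM + 1) in limma the median was 0.21 for the 36 genes and −0.30 for all genes, Gpi1 and Epas1 rose and Ldhb fell. Here 9 genes turned to lower values in treated libraries without a call (Gapdh, Pgk1, Pgam1, Eno1, Eno2, Pkm, Hif1a, Mxi1 and Kdm3a). With Y-linked expression as a covariate in edgeR, 0 of the 36 genes were called and 5 had a log2 fold change above 0, where 0.0191% of all genes rose and 0.0127% fell. At an unadjusted p under 0.05 in that fit, 1 was higher and 13 were lower. Among vehicle and treated libraries this covariate nearly equals the treatment.

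**Figure D2:**
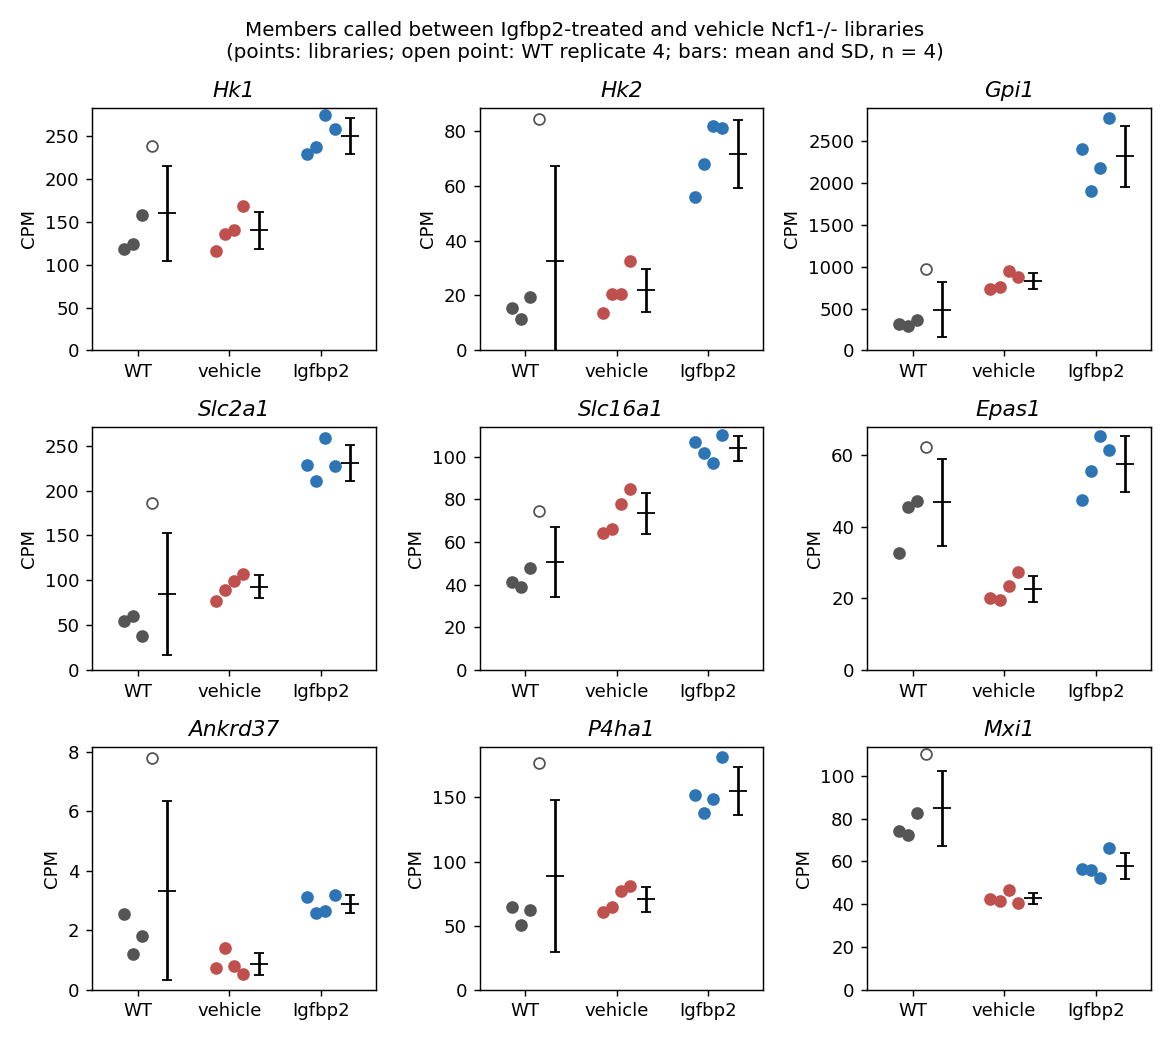
CPM of the 9 genes that rose between vehicle and Igfbp2-treated Ncf1-/- libraries, by library (points), with mean and SD (bars, n = 4, cut at 0 for Hk2 in WT, where the SD exceeds the mean). In each panel the 4 treated libraries lie above the 4 vehicle libraries, and WT replicate 4 (open point) lies above the other WT libraries in all 9 panels.

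The 3 enzymes of glycolysis that rose with Igfbp2 act in its first steps. Hexokinases trap glucose in the cell by phosphorylation. Hk1, the common brain form, was at 116, 136, 141 and 169 CPM in vehicle and 229, 237, 275 and 258 CPM in treated replicates 1 to 4. It was at 118, 125, 158 and 239 CPM in WT. All treated libraries lay above all vehicle libraries, while WT replicate 4 lay within the treated range, and the log2 fold change between treatments was 0.83 ± 0.19 (SE, edgeR adjusted p = 0.00939).

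Hk2, the inducible hexokinase, had 13.5, 20.7, 20.7 and 32.6 CPM in vehicle, 55.7, 67.9, 81.8 and 81 CPM in treated and 15.3, 11.3, 19.4 and 84.1 CPM in WT libraries. Vehicle and treated libraries were separate, and the single highest value was that of WT replicate 4. The rise with Igfbp2 was 1.71 ± 0.52 on the log2 scale (edgeR adjusted p = 0.0311), while vehicle and WT did not differ beyond their spread (−0.56 ± 0.51, edgeR adjusted p = 0.372). As a share of the summed TPM of both hexokinases, Hk2 made up 9.85% ± 1.61 (SD, n = 4) in vehicle and 17.2% ± 1.34 (n = 4) in treated libraries, with ranges of 7.95–11.9% and 15.3–18.4%. The share was 10.7% ± 6.74 (n = 4) in WT, where replicate 4 alone was at 20.7%.

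Gpi1, which turns glucose 6-phosphate into fructose 6-phosphate, was at 316, 291, 361 and 976 CPM in WT, 737, 762, 945 and 876 CPM in vehicle and 2407, 1909, 2184 and 2771 CPM in treated libraries. The treated libraries were the 4 highest of the 12. Its log2 fold change was 1.48 ± 0.33 between treatments (edgeR adjusted p = 0.00732) and 0.77 ± 0.32 between vehicle and WT (edgeR adjusted p = 0.0556). Without WT replicate 4 the latter was 1.33 (edgeR adjusted p = 1.15e-05).

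The 11 other enzymes were not called between treatments over 12 libraries, with log2 fold changes from 0.26 (Pgk1) to 0.71 (Pfkp), all above 0. For 10 of them no treated library overlapped a vehicle library, and Pgk1, which makes the first ATP of the pathway, was the exception (908–1051 CPM in vehicle, 1008–1283 CPM in treated). The enzymes called higher numbered 11 of 14 without WT replicate 4, and Pgk1, Eno1 and Eno2 were not called. Phosphofructokinase commits sugar to glycolysis, and its 3 genes kept similar proportions between treatments. Pfkp made up 16.8% ± 2.02 of their summed TPM in vehicle and 17.7% ± 0.698 in treated libraries (SD, n = 4), against 7.57% ± 1.84 in WT, with no overlap between WT (5.84–9.30%) and vehicle (15.5–19.8%).

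Between vehicle Ncf1-/- and WT, 5 of the 14 enzymes rose and 1 fell. Eno1, which makes phosphoenolpyruvate, was at 648, 550.1, 952 and 1465 CPM in WT and 1680, 1785, 1920 and 1946 CPM in vehicle libraries. It was at 2528, 2092, 2423 and 2603 CPM in treated libraries. The groups did not overlap, and Eno1 was 1.02 ± 0.24 higher on the log2 scale in vehicle than in WT (edgeR adjusted p = 0.00283), with 0.40 more in treated cultures that did not pass the test (adjusted p = 0.241 in edgeR). Gapdh (0.73), Pgk1 (0.92), Pgam1 (0.70) and Pkm (0.65) also rose, and Pfkm fell (−0.59). The other 8 enzymes did not pass. Without WT replicate 4, and on library totals, Gpi1, Pfkp, Aldoa and Tpi1 rose as well. Gapdh is often used as a reference gene, and in these cultures it ranged from 1011 to 3490 CPM. Part of the Pgam1 reads could not be told from 2 pseudogenes, whose counts were 4.47–14.9% of its own, and counting them with Pgam1 changed no count of calls.

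Lactate dehydrogenase links pyruvate and lactate. Ldha, the form that favours lactate, was at 239–859 CPM in WT, 676–792 CPM in vehicle and 896–1205 CPM in treated libraries, the treated all above the vehicle ones (0.52 ± 0.30 on the log2 scale, edgeR adjusted p = 0.211). Ldhb, the form that favours pyruvate, was the only one of the 36 genes with a log2 fold change below 0 between treatments (−0.11 ± 0.14, edgeR adjusted p = 0.62), and its groups overlapped. Ldha made up 58.7% ± 14.1 of the summed TPM of both genes in WT, 73.1% ± 3.53 in vehicle and 80.7% ± 1.88 in treated libraries (SD, n = 4). The vehicle range of 68.9–77.4% and the treated range of 78.1–82.4% did not overlap, and WT replicate 4, at 77.6%, lay above the vehicle range. Pdk1, a kinase that inhibits the pyruvate dehydrogenase complex, was at 67.7–93.5 CPM in vehicle and 115–150.4 CPM in treated libraries. These did not overlap, but the change was not called (0.69 ± 0.37, edgeR adjusted p = 0.191). Ldha and Pdk1 rose between treatments when WT replicate 4 was left out, and Ldhb was not called.

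**Figure D3:**
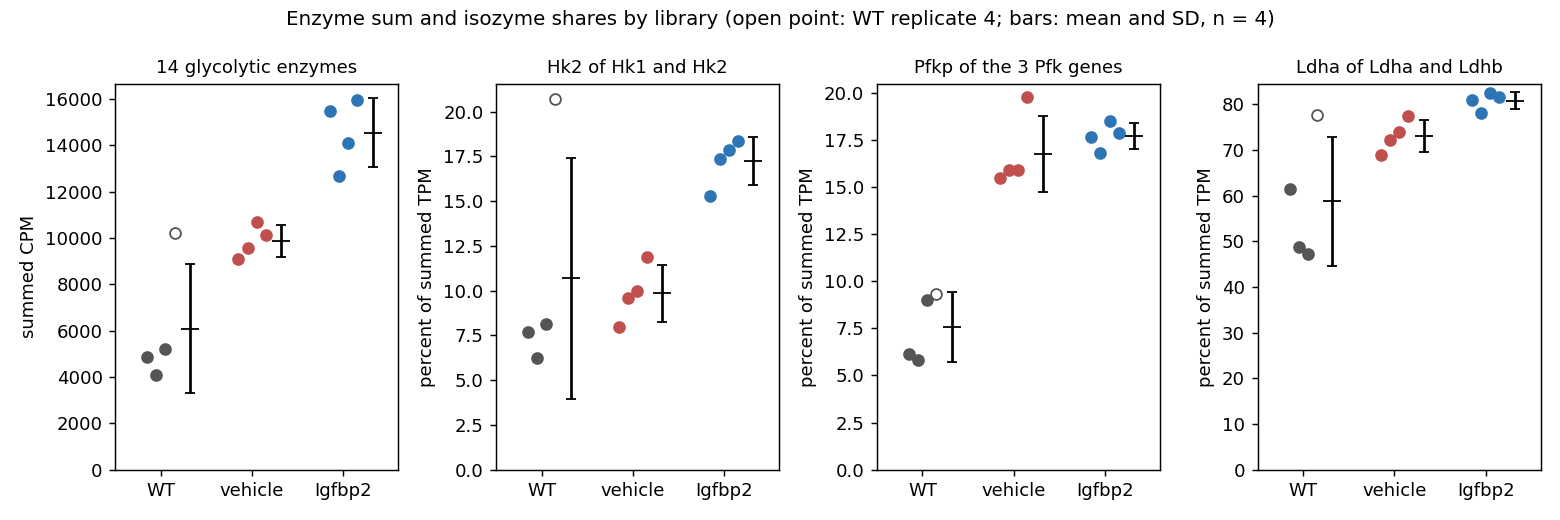
Summed CPM of the 14 glycolytic enzymes, and percent of summed TPM held by Hk2, Pfkp and Ldha among their isozymes, by library (points), with mean and SD (bars, n = 4). Treated libraries lie above vehicle libraries in the sum, the Hk2 share and the Ldha share, and WT replicate 4 (open point) lies above the other WT libraries in these 3 panels.

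Transporters bring glucose in and carry lactate out. Slc2a1, the glucose transporter GLUT1, was at 76.5, 89.5, 99.5 and 107 CPM in vehicle and 228, 211, 259 and 228 CPM in treated libraries. It was at 55.1, 59.8, 37.7 and 186 CPM in WT. The lowest treated library lay above every vehicle and WT library, and Slc2a1 rose by 1.31 ± 0.38 between treatments (log2, edgeR adjusted p = 0.0244). Between vehicle and WT the change was 0.14 with all WT libraries and 0.84 without replicate 4 (edgeR adjusted p = 0.771 and 0.00095).

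Slc16a1 (MCT1), a carrier of lactate in both directions, was at 41.3, 38.9, 47.6 and 74.4 CPM in WT, 64.3, 66.3, 78 and 84.9 CPM in vehicle and 107, 102, 96.9 and 110 CPM in treated libraries. It rose at both steps, by 0.54 ± 0.17 between WT and vehicle (edgeR adjusted p = 0.0174) and by 0.50 ± 0.17 between vehicle and treated libraries (edgeR adjusted p = 0.0497), the latter at the edge of the threshold. Slc16a3 (MCT4), a lactate exporter, was at 37.3–53 CPM in vehicle and 108–141 CPM in treated libraries. These did not overlap, yet the change of 1.52 ± 0.56 was not called (edgeR adjusted p = 0.064). In WT it was at 28.1, 10.8, 24.7 and 139 CPM, and without replicate 4 it rose both between WT and vehicle (1.04) and between treatments (1.48).

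Of the HIF subunits, Epas1 was called at both steps and Hif1a at the first. Epas1 (HIF-2α) was at 32.7, 45.5, 47.1 and 62.3 CPM in WT, 20, 19.4, 23.5 and 27.5 CPM in vehicle and 47.4, 55.8, 65.6 and 61.5 CPM in treated libraries. All vehicle libraries lay below both other groups, which overlapped each other. Epas1 fell by 1.05 ± 0.18 between WT and vehicle (log2, edgeR adjusted p = 0.000219) and rose by 1.35 ± 0.18 with Igfbp2 (edgeR adjusted p = 0.000792). Both calls held without WT replicate 4. Hif1a (HIF-1α), which is regulated mainly as a protein, fell slightly between WT and vehicle (−0.36 ± 0.10, edgeR adjusted p = 0.0101) and was at 0.16 between treatments, with overlapping groups. The prolyl hydroxylases Egln1 (87.1–129 and 163–185 CPM) and Egln3 (47.1–64.7 and 78.5–106 CPM) did not overlap between vehicle and treated libraries and were not called over 12 libraries. Both rose without WT replicate 4 (0.65 and 0.71 on the log2 scale).

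Of the 12 effectors of the hypoxia response, 12 were above 0 between treatments and 3 rose. P4ha1, a collagen prolyl hydroxylase, was at 60.3, 64.2, 77 and 80.8 CPM in vehicle and 152, 138, 149 and 182 CPM in treated libraries. It was at 64.7, 50.2, 61.9 and 177 CPM in WT. Treated and vehicle libraries were separate, and WT replicate 4 was as high as the treated ones (1.13 ± 0.32 between treatments, edgeR adjusted p = 0.0216).

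Ankrd37, a HIF target that codes for a small ankyrin repeat protein, was scarce, with 2.55, 1.19, 1.81 and 7.79 CPM in WT, 0.741, 1.4, 0.795 and 0.522 CPM in vehicle and 3.1, 2.58, 2.63 and 3.19 CPM in treated libraries. It fell by 1.94 ± 0.51 between WT and vehicle (log2, edgeR adjusted p = 0.00573), although WT and vehicle overlapped, and rose by 1.75 ± 0.52 with Igfbp2 (edgeR adjusted p = 0.0278). Without WT replicate 4 the fall was smaller, −1.15, and still called. Mxi1, a repressor that opposes Myc, was at 74.3, 72.4, 82.5 and 110.2 CPM in WT, 42.4, 41.6, 46.5 and 40.8 CPM in vehicle and 56.5, 56, 52.4 and 66.5 CPM in treated libraries. The vehicle libraries were the lowest and the treated ones lay between them and WT (−0.99 ± 0.13 and 0.43 ± 0.13, edgeR adjusted p = 2.32e-05 and 0.0256). Epas1, Ankrd37 and Mxi1 were the genes of the 36 that fell between WT and vehicle and rose between vehicle and treated cultures. Since both changes use the vehicle libraries, the opposite directions are not independent of each other.

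The carbonic anhydrases Car9 and Car12, which buffer acid at the cell surface, differed most between genotypes. Car9 was at 0.091, 0, 0.889 and 7.29 CPM in WT, 7.8, 8.18, 16.1 and 11.4 CPM in vehicle and 22.5, 15.2, 18.6 and 28.2 CPM in treated libraries. WT was all below vehicle, with replicate 4 just under the lowest vehicle library, and the log2 fold change was 2.49 ± 0.79 with it and 4.68 without it (edgeR adjusted p = 0.0158 and 2.6e-05). These fitted values rest on 0 to 131 counts per WT library. Between treatments Car9 overlapped (16.1 CPM in vehicle replicate 3, 15.2 CPM in treated replicate 2). It was not called there with or without WT replicate 4, and rose with vehicle and treated libraries alone. Car12 was at 0.227, 0.054, 0.43 and 0.947 CPM in WT and 1.74, 2.66, 2.47 and 2.61 CPM in vehicle libraries, which did not overlap (2.52 ± 0.43, edgeR adjusted p = 0.000255). It was at 4.21, 3.79, 3.3 and 5.5 CPM in treated libraries, all above the vehicle libraries but not called (0.82 ± 0.35, edgeR adjusted p = 0.103).

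The other 7 effectors were called neither between genotypes nor between treatments over the 12 libraries. Between treatments their log2 fold changes were 1.48 for Vegfa, a growth factor for vessels, 1.65 for Adm, a vasodilator peptide, and 0.91 for Bnip3, a receptor for the removal of mitochondria. They were 1.79 for Ndrg1, 0.61 for Ddit4, an inhibitor of mTORC1, 1.57 for P4ha2 and 0.06 for Kdm3a, a histone demethylase. All but Kdm3a were separate between vehicle and treated libraries and rose without WT replicate 4. Vegfa shows the weight of that library best. It was at 47.2, 32.8, 59.9 and 402 CPM in WT replicates 1 to 4, at 62.4–101 CPM in vehicle and at 189–275 CPM in treated libraries. Its change between WT and vehicle was −0.77 ± 0.61 with replicate 4 and 0.73 without it, where it passed the test (edgeR adjusted p = 0.299 and 0.00898).

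Over all 36 genes, 13 were called between vehicle Ncf1-/- and WT NSCs (57.2% of all genes). Of these 8 rose and 5 fell, where 28.9% of all genes rose and 28.2% fell, and the median log2 fold change was 0.14 against 0.02. Eno1, Epas1, Ankrd37, Car9 and Car12 were called and changed by 1 or more on the log2 scale (20.7% of all genes). In 5 genes all vehicle libraries lay above all WT libraries (26.1% of all genes) and in 2 below (25.0%). The share called was therefore near or under that of all genes. Without WT replicate 4, 21 rose (26.8% of all genes) and 4 fell (28.5%), with a median of 0.77, and 12 of the 13 calls were made again in the same direction. The exception was Pfkm. The genes that then rose included 9 of 14 enzymes, 3 of 3 transporters and 6 of 12 effectors. On library totals in place of TMM factors, 14 rose (38.4% of all genes) and 3 fell (20.1%).

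**Figure D4:**
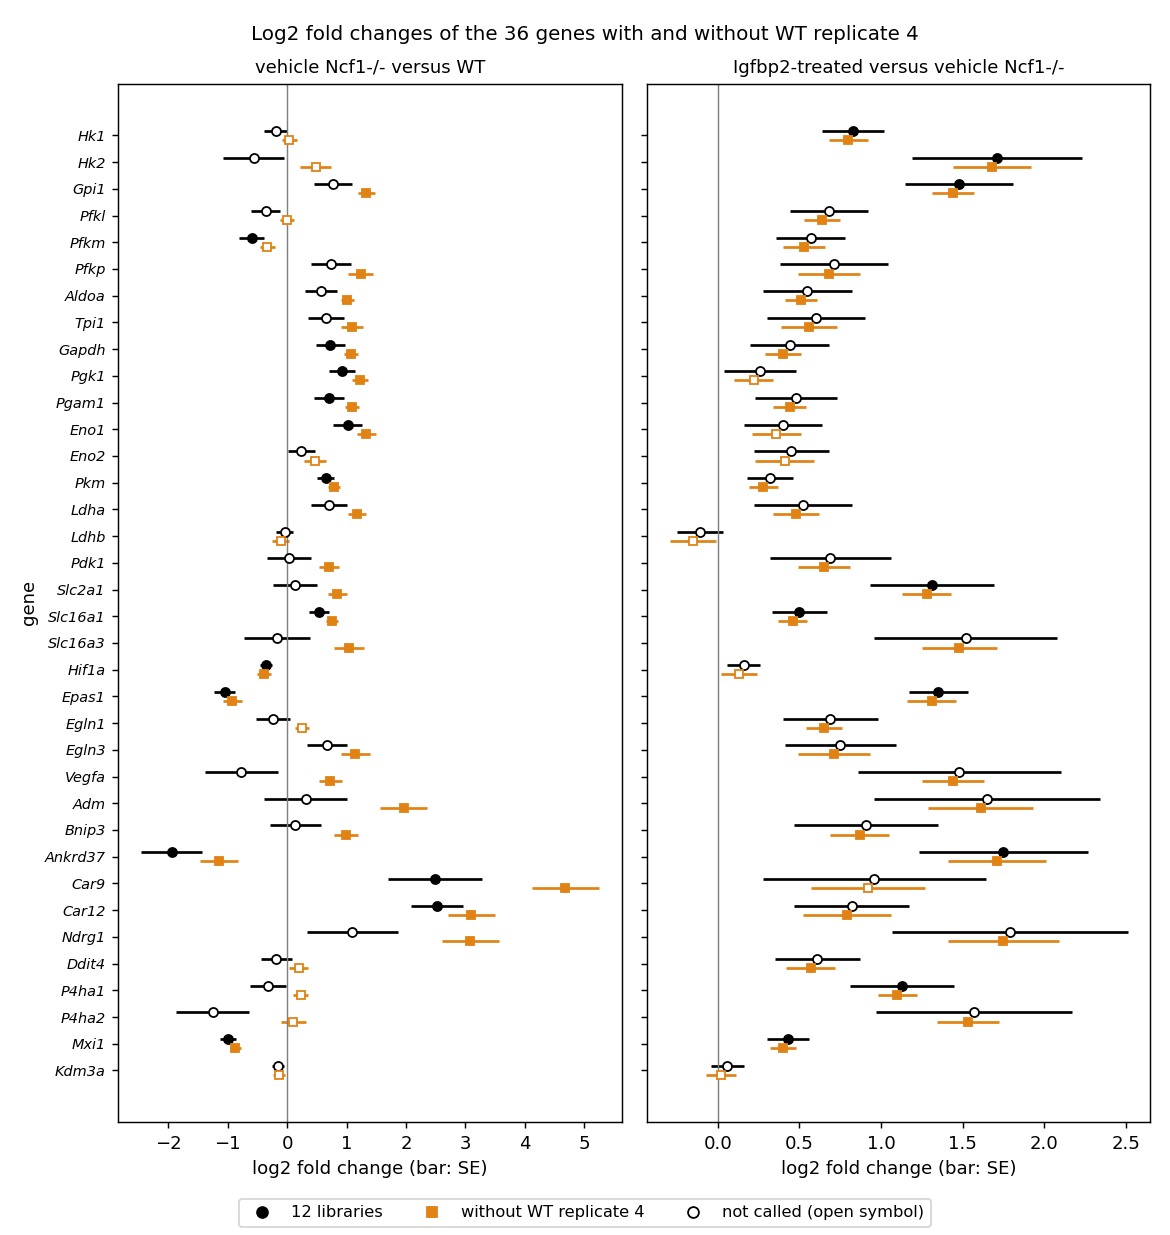
Log2 fold change with SE of each of the 36 genes between vehicle Ncf1-/- and WT (left) and between Igfbp2-treated and vehicle Ncf1-/- (right), with all 12 libraries (circles) and without WT replicate 4 (squares), filled where the adjusted p was under 0.05. On the left the estimates move upwards for most genes without that library. On the right they keep their place while the SE shrinks, and calls go from 9 to 29.

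Igfbp2-treated Ncf1-/- and WT NSCs, which share their libraries with the comparisons above, differed in 21 of the 36 genes (62.4% of all genes), 20 of them higher (31.6% of all genes) and Mxi1 lower (30.8%). The median was 1.05 against −0.01 over all genes. Car9 (3.45), Car12 (3.34), Ndrg1 (2.89) and Gpi1 (2.25) had the largest log2 fold changes among the genes called. In 18 genes all treated libraries lay above all WT libraries (27.8% of all genes), and in 1 below (26.6%). Without WT replicate 4, 30 rose (28.6% of all genes) and 1 fell (33.7%).

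Per length, the order of the genes was led in each group by Gapdh, whose mean TPM was 875 ± 447 in WT, 1512 ± 202 in vehicle and 1450 ± 166.9 in treated libraries (SD, n = 4). Eno1 followed with 363 ± 186, 745 ± 117 and 698 ± 102 TPM. In WT this place was not clear, as Aldoa lay above Eno1 in replicate 1 (236 against 223 TPM), replicate 2 (216 against 207) and replicate 4 (664 against 600). Only in WT replicate 3 did Aldoa lie below it (285 against 421 TPM). Gpi1 was at 194 ± 139, 339 ± 60.8 and 675 ± 73.9 TPM, and in treated libraries it differed from Eno1 by less than their SDs. At the other end, Car12 was at 0.1 ± 0.0837, 0.55 ± 0.122 and 0.68 ± 0.056 TPM.

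Other genes of the same pathways were counted from lists written from general knowledge, also with earlier results of these data known. Between treatments 14.2% of all genes rose and 10.7% fell, between WT and vehicle 28.9% and 28.2%, and between WT and treated libraries 31.6% and 30.8%. Of 25 other hypoxia-induced genes, 13 rose with Igfbp2 and 0 fell in edgeR (23 and 0 at an unadjusted p under 0.05, 12 and 0 in DESeq2), all 25 were above 0, and the median log2 fold change was 0.91. The largest rise was that of Ero1l (2.33), which oxidizes proteins in the endoplasmic reticulum. When WT replicate 4 was left out, 21 rose. From WT to vehicle, 4 rose and 3 fell, with Angptl4 lowest (−2.14), and 16 rose and 3 fell without WT replicate 4. Of 11 HIF pathway regulators, Arnt, the partner subunit, was the 1 gene that rose with Igfbp2 (0.35) and 0 fell in edgeR (3 higher and 2 lower at an unadjusted p under 0.05, 1 and 0 in DESeq2). From WT to vehicle 3 rose, with Cul2 highest (0.47), and 4 fell, with Vhl, which targets the α subunits for destruction, lowest (−0.82).

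Of 12 other glucose and monocarboxylate transporters, 6 rose with Igfbp2 and 0 fell in edgeR, as in DESeq2, with Slc2a3 (GLUT3) first (1.60) and 7 higher and 0 lower at an unadjusted p under 0.05. From WT to vehicle 4 rose (Slc2a4 1.53) and 4 fell (Slc2a13 −1.08). Among 12 other isozymes and regulators of glycolysis, 2 rose with Igfbp2, with Pfkfb3, which makes the activator of phosphofructokinase, first (1.18), and Pfkfb2 fell (−0.39). Between vehicle and WT 4 rose (Hkdc1 3) and 4 fell (Pgam2 −1.06). In both comparisons the shares of this list were near those of all genes, and its median was 0.08 between treatments.

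The tricarboxylic acid cycle, which burns the acetyl groups from pyruvate, was called more widely between genotypes than between treatments, a difference that was not itself tested. Of its 16 genes, 15 rose between WT and vehicle (Fh1 1.13) and 0 fell in edgeR, also without WT replicate 4 (16 and 0 at an unadjusted p under 0.05, and in DESeq2). With Igfbp2 3 rose (Ogdh 0.38) and 0 fell in edgeR, with a median of 0.17 (7 and 0 at an unadjusted p under 0.05, 4 and 0 in DESeq2). Of 10 genes of the pyruvate dehydrogenase complex and its regulators, 4 rose (Pdha1 0.89) and 2 fell (Pdk2 −1.29) between WT and vehicle, and 2 rose with Igfbp2, with Pdk2 first (0.62). Of 7 genes of the pentose phosphate pathway, 3 rose with Igfbp2 (Tkt 0.61) and Rpia fell (−0.40), and 2 rose (Pgls 0.46) and Taldo1 fell (−0.71) between WT and vehicle. Of 4 genes of gluconeogenesis that were measured, Pck2 rose (1.54) and 2 fell (Fbp1 −1.93) between WT and vehicle. Between treatments 0 of the 4 were called in edgeR or DESeq2, with 2 higher and 0 lower at an unadjusted p under 0.05.

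By limma on log2(TPM + 1), the median of all genes between treatments was −0.30, and 1.27% of all genes rose and 39.2% fell. In that fit 8 of the other hypoxia-induced genes rose and 0 fell, and of the HIF pathway regulators 1 rose and 7 fell. Among the isozymes and regulators of glycolysis 1 rose and 4 fell. In the other lists 0 rose, and 3 of the transporters, 3 genes of the pyruvate dehydrogenase list, 7 of the tricarboxylic acid cycle, 4 of the pentose phosphate pathway and 0 of gluconeogenesis fell.

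Between treated and WT libraries, the largest fall among hypoxia-induced genes was that of Kdm4b (−0.66). The largest rise and fall were those of Hif3a (2.43) and Vhl (−0.77) among HIF regulators, and Slc2a4 (2.36) and Slc16a7 (−0.72) among transporters. They were Hkdc1 (3.17) and Aldoc (−1.16) among isozymes and regulators, Pdha1 (0.95) and Pdp1 (−1.06) around pyruvate dehydrogenase, Tkt (1.05) and Taldo1 (−0.74) in the pentose phosphate pathway, and Pck2 (2.11) and Fbp1 (−2.65) in gluconeogenesis. In the tricarboxylic acid cycle 16 of 16 genes rose in edgeR, with Fh1 first (1.24). By limma on log2(TPM + 1) 4 of the 16 rose between treated and WT libraries, where 12.5% of all genes rose and 43.9% fell.

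Markers of cell types moved with these comparisons. Between WT and vehicle, 10 of 10 markers of dividing cells rose (summed 361–657 and 1615–2084 CPM) and 9 of 9 oligodendrocyte markers fell (1847–10310 and 222–278 CPM). Of 8 astrocyte markers 7 fell and 0 rose in edgeR (7 and 0 at an unadjusted p under 0.05 and in DESeq2), with sums of 6797–12420 and 2672–3204 CPM. Of 10 neuron markers 6 fell and 1 rose (672–1073 and 512–581 CPM), and of 6 oligodendrocyte precursor markers 4 fell and 2 rose (2636–4072 and 1985–2149 CPM). With Igfbp2, 5 of 7 markers of mural cells and fibroblasts that passed the filter rose, with summed levels of 12.9–15.6 CPM in vehicle and 35.6–45.5 CPM in treated libraries. Lum, Dcn and Kcnj8 of this list were at 4 or fewer counts in every Ncf1-/- library. Endothelial markers summed to 5.23–9.36 and 12.9–17.8 CPM, with Cdh5 and Tie1 at 0 or 1 count per library in both groups. Of the 4 endothelial markers that passed the filter, 1 rose between treatments in edgeR. Between WT and vehicle, 5 of the 7 markers of mural cells and fibroblasts rose and 1 fell, and 1 endothelial marker rose and 1 fell. Of 10 markers of dividing cells, 0 were called between treatments in edgeR or DESeq2 and 1 was lower at an unadjusted p under 0.05, while limma on log2(TPM + 1) called 8 lower. In edgeR 6 were lower with those groups alone, 5 with the block and 4 on library totals. The part of these cells in the changes described was not tested.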

How the data were processed

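RNA depleted of rRNA from 12 NSC cultures was sequenced, 1 library per culture. The authors mapped reads with Bowtie2 and quantified genes with RSEM, and per the labels' processing notes the build was GRCm38 (versions not given in the sources used here). They deposited expected counts (not normalized), TPM and FPKM per gene, and a merged table whose score equals TPM multiplied by the number of transcripts, within 1% plus rounding, for 257083 of 257083 values above 0. The deposited FPKM served only for isozyme shares. Whether counting used strand is not given in the sources used here, so Hk1 cannot be told from its antisense gene Hk1os. Libraries held 18201622–34086554 counts. Within a group, replicate numbers name separate pups per the study's methods.

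Expected counts were rounded and fitted in edgeR 4.0.16 (R 4.3.3): filterByExpr over 3 groups, TMM factors, a quasi-likelihood fit of 3 group means over 12 libraries, and Benjamini-Hochberg adjustment over all 15706 genes, called under 0.05. CPM are scaled by TMM factors, and errors of log2 fold changes are standard errors. The closest replicates differed by a chi-square of 4.70 for each degree of freedom, more than sampling noise. Isozyme shares are percentages of summed TPM, with no test. In simulated counts for Igfbp2-treated against vehicle libraries (15706 genes), edgeR recovered 82 of 100 genes changed by a log2 fold change of 1 and 17 of 100 changed by 0.5, with 2 false calls. In that simulation the spread per gene was capped, and only genes above a lower limit of counts were changed. The recovery therefore does not apply to genes with a wider spread or few counts.

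Although the rule for the 36 genes uses no measured value, the genes and lists were chosen with earlier results of these data known. Values in every library are given for genes called between treatments, or called between vehicle and WT and changed by at least 1 on the log2 scale. From each list of other genes, the called gene with the largest rise and fall is named, except 1 gene that is not reported here. Per the study's methods, vehicle and treated cultures are paired by pup, so the number was used as a block. Y-linked expression differed within each of the 4 numbered pairs, so the number does not bear out that pairing, and the block may not match pups. With group means taken off, same-numbered cultures correlated across genes at −0.0673 to 0.0328 (4 pairs), against −0.248 to 0.257 for 12 other pairs.

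Alternatives were DESeq2 1.42.0, limma 3.58.1 on log2(TPM + 1), log2(TPM + 0.1) and TPM rescaled without 5 short structural RNAs, library totals, no filter, only the groups compared, the study's own test on TPM, pseudogene copies counted with the gene, Y-linked expression as a covariate, the block, and each library left out. A vehicle against WT fit of those groups alone without WT replicate 4 was added after seeing the data. Columns holding the authors' own comparisons were not used.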

Additional observations from a re-analysis of the deposited data

Results flagged for a closer look

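Values far from the rest of their group of 4 were looked for with Dixon's test at the 95% level, which flags about 1 in 20 groups by chance. It flagged 20 of 129 sets of 4 values, and 16 of these were WT replicate 4. In CPM, this library was at 26.0 for Adm, 1168 for Aldoa, 165.4 for Bnip3, 7.29 for Car9, 246.6 for Egln1 and 2417 for Gapdh. It was at 976 for Gpi1, 84.1 for Hk2, 15.1 for Ndrg1, 177 for P4ha1, 21.3 for P4ha2 and 679.5 for Pgam1. It was at 139 for Slc16a3, 186.5 for Slc2a1 and 401.5 for Vegfa, and at 20.7% for the Hk2 share of Hk1 and Hk2. In each of these the value lay above the other WT libraries, the nearest of which was at 59.9 CPM for Vegfa and 8.12% for the Hk2 share.

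The other values were those of vehicle Ncf1-/- replicate 3 for Aldoa (1036 CPM, against 891–916 CPM) and Tpi1 (510.5 CPM, against 447–455 CPM), of vehicle Ncf1-/- replicate 4 for the Pfkp share of phosphofructokinase TPM (19.8%, against 15.5–15.9%) and of WT replicate 3 for Ldhb (294 CPM, against 194–202 CPM). No treated library was far from its group in this way.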

How the results depend on the processing

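The counts of called genes among the 36 depended on the libraries and on the scale. Between treatments, where 9 were higher and 0 lower, 32 were higher with those groups alone and 32 with the replicate block, 2 higher and 1 lower by limma on log2(TPM + 1) and on log2(TPM + 0.1), 1 higher by the study's own test and 0 with the Y-linked covariate. Leaving out 1 library gave 3 to 29, with 29 without WT replicate 4. The call count was 3 without vehicle replicate 1 or treated replicate 4, 4 without vehicle replicate 2 or 3 or treated replicate 2, and 5 without treated replicate 1 or 3. Between vehicle and WT, where 8 were higher and 5 lower, library totals gave 14 and 3, limma on log2(TPM + 0.1) 14 and 3, limma on log2(TPM + 1) 3 lower, the study's own test 2 and 1, and the Y-linked covariate 21 higher. Leaving out 1 library gave 5 to 21 higher (5 without WT replicate 1 or 2, 21 without replicate 4), and those groups alone without WT replicate 4 gave 21 and 3. Between treated and WT, where 20 were higher and 1 lower, the study's own test gave 4 and 2, the Y-linked covariate 9 and 4, the 3 limma fits 4 lower each, library totals 2 lower, the groups alone 2 lower, and leaving out 1 library 1 to 2 lower (2 without vehicle replicate 4 or treated replicate 3). Other counts of these genes stayed within 1.5 times. The cause was not tested. Standard errors between treatments were smaller without WT replicate 4, and this was not tested as a cause either.

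Among genes called in either fit, directions turned as follows. Between vehicle and WT, Slc16a3 was at 1.03 with the Y-linked covariate, 1.04 without WT replicate 4 and 1.10 for those groups alone without it, and Vegfa at 0.71, 0.73 and 0.78, with ranges of −0.53 to 1.04 and −1.12 to 0.73 over the fits that left out 1 library. With the Y-linked covariate Hk2 was at −0.46, Slc2a1 at −0.40, Slc16a1 at −0.21, Ankrd37 at −0.10, P4ha1 at −0.27 and Mxi1 at −0.03 between treatments, and P4ha1 at −0.03 and P4ha2 at −0.96 between treated and WT. Mxi1 was at −0.04, −0.05 and −0.04 between treatments by limma on log2(TPM + 1), limma on log2(TPM + 0.1) and the study's own test. Among vehicle and treated libraries that covariate nearly equals the treatment, so its slope comes mainly from WT replicate 4. Of genes not called in either fit, Ldhb, Slc16a3, Ddit4 and Kdm3a turned between vehicle and WT on library totals, Ldhb, Slc16a3 and Vegfa by limma on log2(TPM + 1), the last pair also on rescaled TPM, and Pfkl and Epas1 between treated and WT by limma on log2(TPM + 1). Whatever the values, leaving out 1 of 4 libraries cannot move a group's mean isozyme share by 1 SD, so that check tests nothing. Shares of FPKM or of counts per length are proportional to those of TPM and test nothing. At these depths, log2 fold changes had a median standard error of 0.141, and Ankrd37, Car9, Car12, Adm and Ndrg1 rest on few WT counts.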
